A study of Mus musculus with 16 samples.

Results

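OCT4 peaks that lay close together on the chromosome were selected from a merged list of OCT4 ChIP-seq peaks of mouse embryonic stem (ES) cells. The members were chosen by their coordinates and by the repeat masking of the reference. Peaks with at least 50% lower-case (repeat-masked) bases or longer than 5 kb were dropped from the 26704 listed peaks, which left 22504. Kept peaks separated by at most 10 kb from edge to edge were stitched into 1 unit, and units of at least 3 peaks were called clusters. This gave 651 clusters with 2187 peaks, 9.72% of the kept peaks and 8.19% of the list. The clusters also enclosed 28 dropped peaks, which were not counted. Of the other kept peaks, 4914 were in units of 2 (paired peaks) and 15403 had no kept neighbour within 10 kb (lone peaks).

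The study profiled 16 ChIP-seq libraries in 8 groups, 2 libraries a group, from a pair of mouse ES cell lines grown in serum with LIF and 2i inhibitors. The list came from the OCT4 libraries of 2TS22C, 1 line in which a Tet-Off promoter drives Sox2, so that doxycycline switches it off while OCT4 stays under its own gene. Doxycycline at 1 µg/ml for 26 h gave the SOX2 OFF group and untreated cells the SOX2 ON group, with 2 OCT4 libraries each, and some SOX2 is known to persist at 26 h. The list holds chromosome, start and end only. It does not tell ON from OFF libraries, has no peak height and no replicates, and the depth behind it is unknown, so shares below carry 95% Wilson intervals that cover counting error only, and neighbouring peaks of 1 cluster are not independent.

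OCT4, encoded by Pou5f1, reads an octamer through its POU domains, and SOX2 reads a short core through its HMG domain. In ES cells the 2 factors often share a composite element in which the octamer and the SOX site lie side by side. Groups of closely spaced binding sites of such factors near genes of cell identity, often called enhancer clusters or super-enhancers, are known from these cells, where they are usually defined by mediator or histone acetylation signal. No such signal was part of the list, and whether the clusters were active enhancers was not measured here.

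The sequences below show how the composite element appears in the clusters that the values turn on, taken from the mouse genome GRCm38 (mm10). The element was searched as the octamer ATTTGCAT directly followed by AACAATG, 15 bases in all, with at most 3 mismatches on either strand of the central 200 bp of a peak. Each line gives 30 bases read on the strand of the match, the coordinates are those of the match, and capitals mark the match.
Pou5f1 cluster, peak 2, chr17:35504049-35504063, plus strand, 3 mismatches: agacggcAGATGCATAACAAAGgtgcatga
Sox2 cluster, peak 3, chr3:34654049-34654063, minus strand, 2 mismatches: taatcctATATGCATCACAATGgctgcccg
Cdh1 cluster, peak 2, chr8:106604029-106604043, minus strand, 3 mismatches: tagctccATTTGCATCTCACTGgagacgcc
Clybl cluster, peak 2, chr14:122258499-122258513, minus strand, 3 mismatches: aatgctaCTTTACACAACAATGtagacagt
Clybl cluster, peak 6, chr14:122277416-122277430, minus strand, 2 mismatches: agggcagATTTGCACATCAATGtgatatag
Il3ra cluster, peak 1, chr14:14348583-14348597, minus strand, 3 mismatches: tgcatggATTTGCATAACATCAtggttcca
Il3ra cluster, peak 2, chr14:14352107-14352121, plus strand, 3 mismatches: ctgactgATTTGCAAAATTATGcaaagtaa
Il3ra cluster, peak 3, chr14:14353633-14353647, minus strand, 3 mismatches: tgcataaATTTGAATAAAATTGcttgattt
Il3ra cluster, peak 4, chr14:14354843-14354857, minus strand, 3 mismatches: tgcataaATTTGCATAAATTTGcatgagcc
Ccna1 cluster, peak 1, chr3:54981396-54981410, plus strand, 3 mismatches: agatgtgGTTTGAATAAGAATGtccccaat
Ccna1 cluster, peak 2, chr3:54982012-54982026, minus strand, 3 mismatches: tgtggagGTTTGCATGATAATGcccccata
Ccna1 cluster, peak 3, chr3:54990191-54990205, plus strand, 3 mismatches: cacaataGTTTACATAAAAATGaagcaaca
Tle4 cluster, peak 3, chr19:14664259-14664273, plus strand, 2 mismatches: tatggtgATTTGAATAAGAATGactccctc
Tle4 cluster, peak 4, chr19:14666747-14666761, plus strand, 3 mismatches: cttcaggATATGCATAAATATGaaggtcca
Tle4 cluster, peak 6, chr19:14680058-14680072, minus strand, 3 mismatches: tgtggtgATTTGAATAAGAAGGacccccta
The 4 Il3ra matches each began with ATTTG, and the matches of peaks 1 and 4 carried the octamer without mismatch. In these, as in Cdh1 peak 2, all 3 mismatches fell in the second part, AACAATG. In Clybl peak 2 all 3 fell in the octamer, and the second part was without mismatch. All 15 bases of the match were lower-case in the reference in Ccna1 peak 1 and in Tle4 peaks 3 and 6, and no base was in the other 12 matches above.

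For the clusters at Pou5f1, Sox2 and Cdh1 the peak around the match is shown at greater length, as the middle 300 bases of the peak or, for Cdh1, all 240 bases of it. The plus strand is given, so the minus-strand matches of Sox2 and Cdh1 read as their reverse complement.
Pou5f1 cluster, peak 2, chr17:35503914-35504213, plus strand: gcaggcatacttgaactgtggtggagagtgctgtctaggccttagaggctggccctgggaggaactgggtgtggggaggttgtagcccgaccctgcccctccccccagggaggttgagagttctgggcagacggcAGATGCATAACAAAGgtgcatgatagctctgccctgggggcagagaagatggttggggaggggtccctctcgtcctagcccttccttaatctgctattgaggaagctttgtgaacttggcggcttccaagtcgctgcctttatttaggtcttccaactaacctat
Sox2 cluster, peak 3, chr3:34653823-34654122, plus strand: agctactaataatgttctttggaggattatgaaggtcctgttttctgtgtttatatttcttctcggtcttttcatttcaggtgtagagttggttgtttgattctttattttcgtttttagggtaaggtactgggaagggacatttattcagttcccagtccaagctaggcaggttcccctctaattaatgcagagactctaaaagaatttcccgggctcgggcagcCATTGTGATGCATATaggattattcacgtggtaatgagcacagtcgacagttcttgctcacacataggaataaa
Cdh1 cluster, peak 2, chr8:106603952-106604191, plus strand: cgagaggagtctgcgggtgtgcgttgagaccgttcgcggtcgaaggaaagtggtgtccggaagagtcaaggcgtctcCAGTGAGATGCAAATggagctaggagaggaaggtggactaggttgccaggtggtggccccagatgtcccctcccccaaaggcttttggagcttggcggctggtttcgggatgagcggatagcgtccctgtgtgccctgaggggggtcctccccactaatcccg

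Most clusters were small. There were 488 clusters of 3 peaks (75%), 110 of 4 peaks (16.9%), 38 of 5 peaks (5.84%), 13 of 6 peaks (2%), 1 of 7 and 1 of 8. The median span was 11.7 kb, with an interquartile range of 8.48 to 15.8 kb and extremes of 1.08 and 36.3 kb. Together they spanned 8.11 Mb, and peaks filled a median of 10.7% of a span. The 1536 gaps inside clusters had a median of 4.95 kb, and 268 of them (17.4%) were under 1 kb, the smallest 9 bp. These distances are what the selection used and describe the members. At its edge, the largest gap joined was 10000 bp and the smallest one not joined 10002 bp. In 124 clusters, 95 of them with 3 peaks, the largest gap was 9 to 10 kb, and joining gaps up to 11 kb would give 751 clusters with 369 more peaks.

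**Figure D1:**
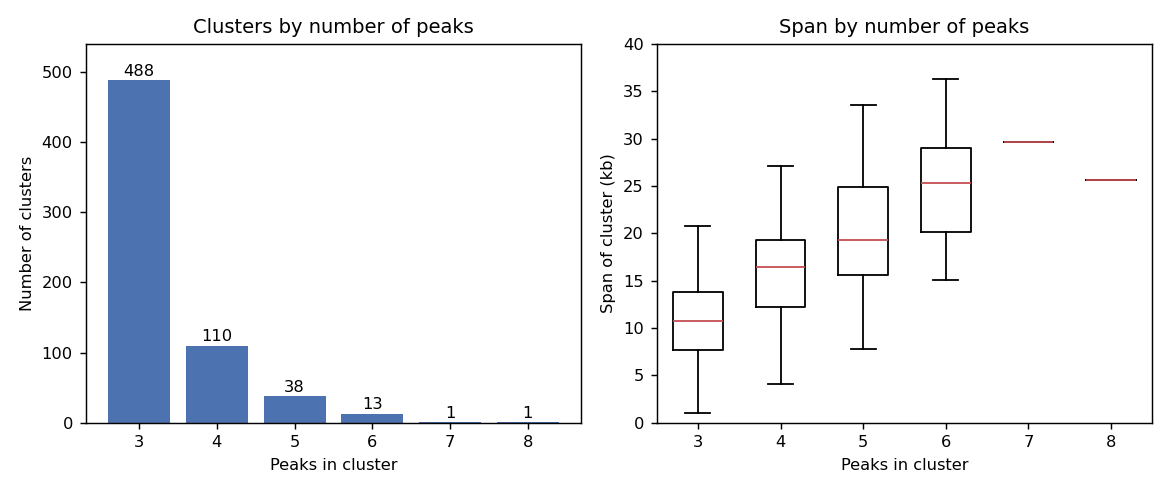
Left, bars give the number of clusters (y axis) by peaks in a cluster (x axis). Right, boxes give the cluster span in kb by peaks in a cluster, with the median as a line, the quartiles as the box and the lowest and highest value as whiskers. The 488 clusters of 3 peaks make up 75% of the total, and the longest cluster, 36.3 kb, has 6 peaks.

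The clustered peaks were as wide as isolated ones. Their median width was 348 bp (interquartile range 263 to 462 bp, extremes 203 and 2326 bp), against 348 bp in paired and 351 bp (267 to 465 bp) in lone peaks. Median GC content was 47% (43 to 51%) in clustered and 46.5% (42.5 to 50.5%) in lone peaks. Clustered peaks lay nearer to genes: from the midpoint to the nearest protein-coding transcription start site (TSS) the median distance was 14.5 kb (5.08 to 46 kb), against 19.3 kb in paired and 24.6 kb (5.65 to 79.6 kb) in lone peaks. Counted peak by peak, they were nevertheless less often at promoters. A midpoint within 1 kb of such a TSS was found in 229 clustered peaks, 10.5% (9.26 to 11.8%). The share was 14.1% (13.5 to 14.6%) of lone peaks and 13.7% of all kept peaks. With 1 middle peak taken from each cluster it was 12.4% (10.1 to 15.2%), which overlapped the interval of lone peaks. Counted by cluster, 183 of 651 (28.1%) had at least 1 such peak. By annotation, 41.6% of clustered midpoints were in introns of protein-coding genes, 6.68% in their exons, 41.1% in intergenic sequence and 10.6% (9.39 to 12%) in annotated genes of other types, a class that held 7.01% (6.62 to 7.43%) of lone peaks.

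The composite element was less common in clustered than in lone peaks. It was present in 162 clustered peaks, 7.41% (6.38 to 8.58%), in 8.4% (7.66 to 9.21%) of paired peaks and in 1504 lone peaks, 9.76% (9.31 to 10.2%), against 9.24% of all kept peaks. The intervals of clustered and lone peaks did not overlap. Windows of 200 bp were also taken at the middle of gaps of at least 1 kb inside the clusters. The element was in 15 of 1262 of them, 1.19% (0.722 to 1.95%), far below the clustered peaks. Unlike the peaks, these windows were not filtered for repeat-masked bases, here and in the motif shares below. Among distal peaks, those over 1 kb from a TSS, the shares were 7.76% (6.66 to 9.03%) in clustered and 10.8% (10.3 to 11.3%) in lone peaks. With at most 2 mismatches allowed, the shares over all peaks were 1.19% (0.813 to 1.74%) and 1.97% (1.77 to 2.21%). The clustered share was the lower one under each of the 11 other settings compared, although the intervals overlapped under 3 of them. These were joining gaps only up to 5 kb (8.07%, 6.1 to 10.6%, against 9.49%, 9.08 to 9.92%), dropping peaks with at least 25% lower-case bases (7.44%, 6.1 to 9.03%, against 9.17%, 8.7 to 9.67%) and keeping peaks of at least 300 bp alone (7.7%, 5.92 to 9.96%, against 10.3%, 9.79 to 10.9%). With 1 middle peak taken from each cluster, the share was 8.29% (6.41 to 10.7%), and its interval overlapped that of lone peaks too. Matches mostly in lower-case bases made up 15.4% of the composite matches in clustered and 13.2% in lone peaks. Without them the shares were 6.26% (5.32 to 7.36%) and 8.47% (8.04 to 8.92%).

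In percentage points the other motifs differed less between clustered and lone peaks than the composite element did. The octamer ATTTGCAT, which overlaps the composite element, was in 6.81% (5.83 to 7.95%) of clustered peaks, 7.95% of lone peaks and 7.79% of all kept peaks, with 0.634% in gap windows. A SOX core, CCATTGT or CCTTTGT, which can also overlap the element, was in 19.7% (18 to 21.4%) of clustered and 20.3% of lone peaks, 20% of all kept peaks and 6.18% of gap windows. TCAAGGTCA, the site of the orphan receptor ESRRB, was in 1.69% of clustered, 1.64% of lone peaks and 0.792% of gap windows. The KLF sites GGGTGTGGC and GGGCGTGGC were in 1.78%, 1.62% and 0.475%, and the STAT site TTCCNGGAA, bound downstream of LIF, in 1.33%, 0.98% and 0.713%. The TFAP2 site GCCNNNGGC was in 6.36% of clustered peaks, 7.45% of lone peaks and 4.36% of gap windows. TGACTCA, the site of AP-1, was the motif other than the composite whose intervals did not overlap, and in relative terms it differed more, at 3.11% (2.46 to 3.92%) in clustered and 4.51% (4.2 to 4.85%) in lone peaks, and gap windows held it in 3.57% (2.68 to 4.74%). All motifs were searched on both strands in the central 200 bp, those other than the composite without mismatch, and a match is a description of the letters.

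**Figure D2:**
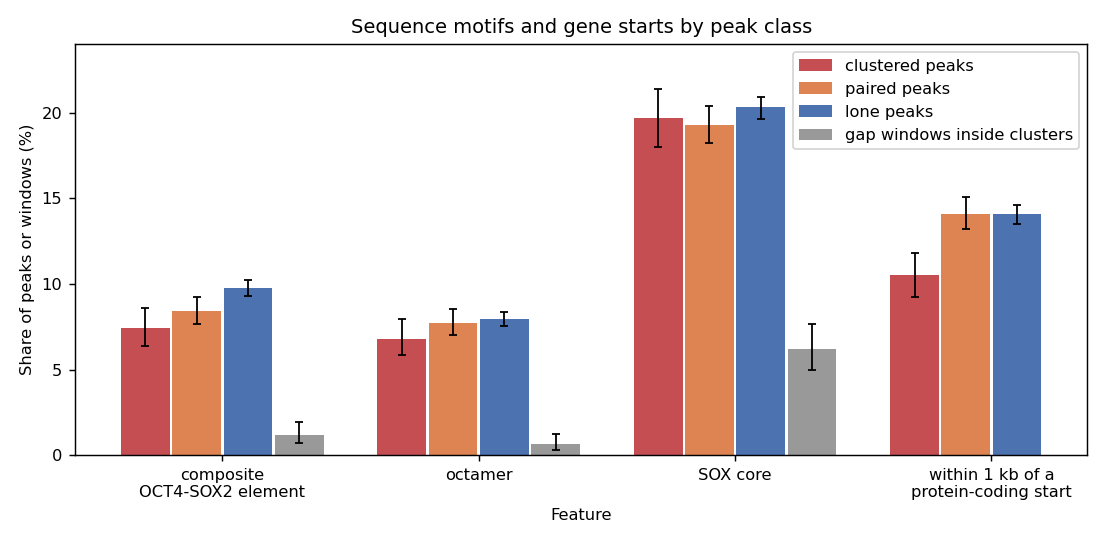
Bars give the share (%) of clustered, paired and lone peaks, and of gap windows inside clusters, with each feature on the x axis, and error bars are 95% Wilson intervals for counting error. The composite element falls from 9.76% in lone to 7.41% in clustered peaks and 1.19% in gap windows. The SOX core is near 20% in each class of peaks. Gap windows were not filtered for repeat-masked bases and were not assigned to gene starts.

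When all kept peaks were grouped by the distance to the nearest other kept peak, the composite share rose from 6.94% (5.77 to 8.34%) of 1512 peaks at up to 1 kb to 11.7% (10.5 to 13.1%) of 2505 peaks at over 100 kb. In between it was 8.72%, 8.17%, 8.37%, 9.77% and 10% at 1 to 5, 5 to 10, 10 to 20, 20 to 50 and 50 to 100 kb, and each bin overlapped the next in its interval. The octamer went from 6.15% (5.05 to 7.48%) to 8.7% (7.66 to 9.87%). The SOX core was likewise lowest at up to 1 kb, at 17.3% (15.5 to 19.3%), and highest at over 100 kb, at 21.8% (20.3 to 23.5%). In the bins between it was 21.2%, 19%, 19.6%, 19.6% and 21.3%. The share of peaks within 1 kb of a TSS varied over the same bins without a single direction: it was 18.3% for the closest peaks, 10.9% at 1 to 5 kb, then 12%, 13.5%, 15.5% and 15.5%, and 10.1% at over 100 kb. The part of these peaks in the motif shares was not tested in these bins.

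**Figure D3:**
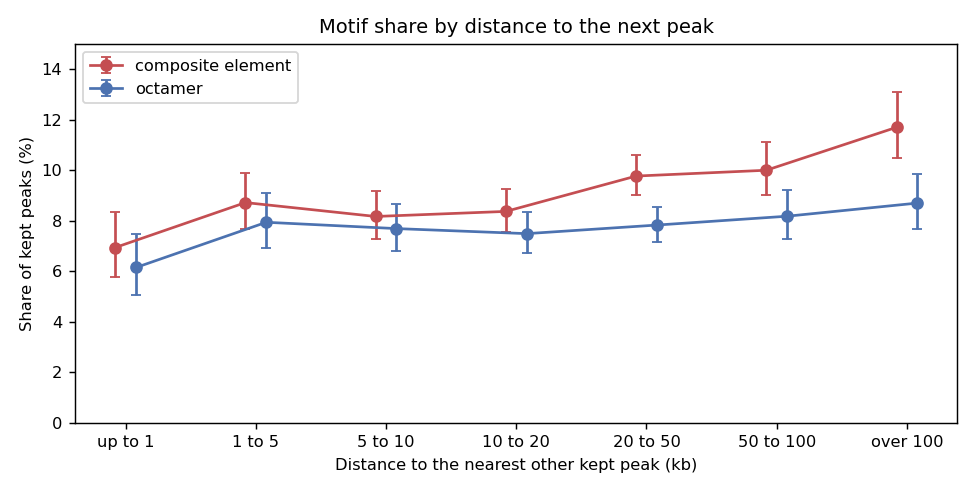
Points give the share (%) of all kept peaks with the composite element or the octamer by the distance in kb to the nearest other kept peak, and error bars are 95% Wilson intervals. The composite share is lowest, 6.94%, for peaks within 1 kb of another and highest, 11.7%, for peaks over 100 kb from any other.

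Inside clusters the position of a peak made little difference. The composite element was in 6.76% (5.52 to 8.25%) of the outermost and 8.36% (6.71 to 10.4%) of the inner peaks, and in 7.99% of the widest peak of each cluster and 7.16% of the others. By size it was in 7.99% of the peaks of 3-peak clusters, 5.45% of those of 4 peaks and 7.42% of those of 5 or more, with overlapping intervals throughout. Most clusters had no such peak: 512 of 651 (78.6%) had 0, 120 had 1, 16 had 2, 2 had 3 and 1 had 4. Thus 139 clusters (21.4%, 18.4 to 24.7%) held at least 1, 129 (19.8%) at least 1 octamer and 328 (50.4%) at least 1 SOX core, while 221 (33.9%) held none of them in the central 200 bp of any peak. Over all kept peaks the shares per peak were 9.24%, 7.79% and 20%. A cluster has at least 3 peaks in which to hold a match, so its shares are not comparable with those of single peaks. Whether they differ from what the number of peaks alone would give was not tested. Where 2 neighbouring matches lay in 1 cluster, 13 of 23 pairs were on the same strand, and they were a median of 8.18 kb apart (0.616 to 20.5 kb).

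The clusters fell into 3 main kinds by their position. In 211 clusters (32.4%) a protein-coding TSS lay inside, and in 25 of these the TSSs of more than 1 gene. A further 173 (26.6%) had every midpoint within 1 protein-coding gene but no TSS, 237 (36.4%) had no midpoint in a protein-coding gene and no TSS, and 30 were mixed. The composite element was in 5.79% (4.31 to 7.73%) of the peaks of clusters with a TSS, 9.68% (7.52 to 12.4%) of those within a gene and 7.51% (5.86 to 9.56%) of those outside genes, so that the intervals of the first and second kinds overlapped narrowly. In 468 clusters (71.9%) all peaks were distal. The nearest TSS was inside or within 50 kb of the cluster in 512 (78.6%), over 100 kb away in 79 (12.1%) and over 250 kb away in 22. The median distance was 8.99 kb. These distances ran from the nearest edge of the cluster, so they are not comparable with those from the midpoint of a peak. The same shares of lone peaks are not given, and whether 78.6% is above that background was not tested.

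The cluster with the most peaks lay in an intron of Clybl (chr14:122255484-122281152), which encodes a mitochondrial lyase. Its 8 peaks were 408, 217, 272, 536, 216, 364, 224 and 206 bp wide along 25.7 kb, and peaks 2 and 6 held the composite matches shown above. The nearest TSS was that of Clybl itself at 73.8 kb, followed by those of Tm9sf2 at 148 kb and Gm5089 at 170 kb. Those of Zic5 and Zic2, zinc-finger factors of the early neural plate, lay farther off, at 185 and 194 kb. The 7 peaks at Cdh1 (chr8:106599628-106629302), which encodes the adhesion molecule E-cadherin, spanned 29.7 kb from upstream of the gene into its introns. They were 550, 240, 235, 382, 483, 397 and 207 bp wide, and the 240 bp peak, within 1 kb of the TSS, was the one with a composite match and an octamer. Thus at both Clybl and Cdh1 most peaks held no composite match.

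Of the 6-peak clusters, 3 followed in the order by bases in peaks. The cluster at Myo10, an unconventional myosin of filopodia (chr15:25752664-25777988), spanned 25.3 kb within the gene, with peaks of 216 to 902 bp and no composite match. The cluster nearest to AU018091 (chr7:3193091-3223386) spanned 30.3 kb, with peaks of 666, 468, 423, 382, 681 and 363 bp and no composite match or octamer, and the TSS of AU018091 was 23.9 kb away. It enclosed 9 annotated microRNA genes, from Mir290a to Mir295 (chr7:3218626-3220841), the miR-290 family that is abundant in mouse ES cells. They lay between the fifth and the sixth peak. Of all clusters, 10 enclosed or touched a microRNA gene, 20 genes in all with these 9 among them. Mirlet7g, in a 4-peak cluster nearest to Wdr82, was another well-known one. MicroRNA genes at paired or lone peaks were not counted, so these counts have no background beside them. The longest cluster, 36.3 kb, lay within Fat1, an atypical cadherin (chr8:44962593-44998860), 12.4 kb from its nearest TSS, with 6 peaks of 402, 644, 602, 658, 324 and 210 bp, SOX cores in peaks 1 and 3 and no composite match.

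The next longest clusters had 5 peaks each. That at Ankrd6, an ankyrin-repeat protein of WNT signalling (chr4:32923341-32956875), spanned 33.5 kb with peaks of 395, 264, 416, 208 and 351 bp, and peaks 2 and 3 held a composite match. That at Irak1, a kinase of interleukin-1 and Toll-like receptor signalling (chrX:73998913-74032284), spanned 33.4 kb with peaks of 496, 388, 328, 229 and 518 bp and no composite match. A TSS of Irak1 lay inside.

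The clusters with the most composite matches ranged from 6.72 to 25.7 kb in span, and the 2 matches of Clybl were a number reached by 16 clusters, Ankrd6 among them. In the 6.72 kb cluster at Il3ra, the interleukin-3 receptor alpha chain (chr14:14348319-14355039), all 4 peaks (431, 345, 1898 and 287 bp) held both a composite match and an octamer. In peaks 1 and 4 that octamer was part of the match, and all 3 mismatches fell in the bases after it. A SOX core was in no peak of this cluster. Its peaks filled 44.1% of the span, and the nearest TSS was 1.27 kb away. At Tle4, a Groucho-type corepressor (chr19:14655877-14680142), 3 of 6 intergenic peaks held a match, 57.8 kb from the TSS, and 2 of these matches were in lower-case bases. At Ccna1, a germ cell cyclin (chr3:54981231-54990478), each of 3 intergenic peaks of 297, 251 and 530 bp held 1, 60.2 kb from the TSS. A cluster on chromosome Y nearest to Gm21860 (chrY:90718657-90740346) held 2 in 5 peaks, 3 of which were multi-copy sequence. Matches in these clusters were thus spread over peaks of different widths.

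**Figure D4:**
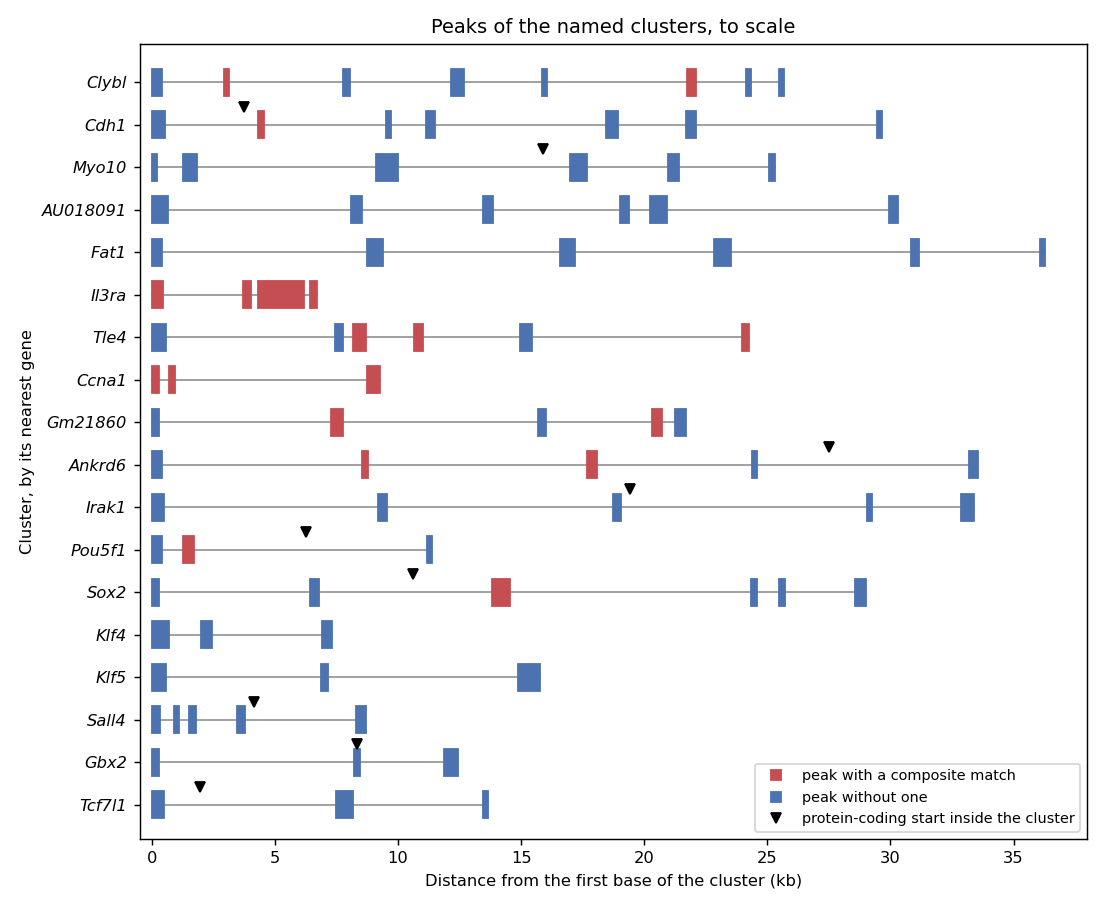
Each row is 1 named cluster, by its nearest gene, drawn to scale as distance in kb from its first base. Boxes are peaks, red with a composite match in the central 200 bp and blue without, and triangles mark the protein-coding start that the distance was taken to where it lies inside. All 4 peaks at Il3ra and all 3 at Ccna1 are red, against 2 of 8 at Clybl and 1 of 6 at Sox2.

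Of 20 genes of pluripotency transcription factors, 7 (35%, 18.1 to 56.7%) had a cluster within 50 kb of their most upstream TSS, against 4.59% of 21853 protein-coding genes. The lists were chosen with earlier results of these data known, and the share of all genes is given as a background without a test. At Pou5f1 itself (chr17:35502567-35513948) the cluster spanned 11.4 kb, with peaks of 398, 464 and 207 bp, the first 2 intergenic upstream of the gene and the last in an intron of Tcf19. The second held the composite match, and the largest gap, 9446 bp, was just short of the limit for joining. At Sox2 (chr3:34639789-34668809) the 6 peaks were 304, 348, 702, 218, 238 and 461 bp wide over 29 kb, all within the long non-coding Sox2ot, and the widest held the match. A second cluster nearest to Sox2 lay 106 kb downstream (chr3:34756573-34761624), with 3 peaks over 5.05 kb and no match, and was outside the 50 kb window. The region downstream of Sox2 is known to hold a distal enhancer of the gene in ES cells.

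The other 5 clusters at pluripotency genes held no composite match. At Sall4, a zinc-finger partner of OCT4 (chr2:168761094-168769780), 5 peaks of 325, 225, 322, 331 and 394 bp lay over 8.69 kb around the TSS. At Gbx2, a homeobox factor downstream of LIF (chr1:89922838-89935251), 3 peaks of 269, 243 and 533 bp spanned 12.4 kb. At Tcf7l1, a repressor of WNT target genes (chr6:72787284-72800936), 3 peaks of 508, 694 and 208 bp spanned 13.7 kb. At Klf5, a Krüppel-like factor (chr14:99324723-99340502), the 3 peaks of 569, 264 and 895 bp began 26 kb from the TSS. At Klf4, another such factor (chr4:55475348-55482654), 3 peaks of 703, 436 and 414 bp ended 49.8 kb from the TSS, at the edge of the window. Octamers were absent from all 7 clusters, and SOX cores were in 4 of them, at Pou5f1, Sox2, Sall4 and Gbx2.

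The remaining 13 genes included Nanog, Klf2, Esrrb, Tfcp2l1, Tbx3, Prdm14, Nr5a2, Nr0b1, Zfp42, Sall1, Mycn and Myc. Most were not short of peaks: 11 of them had at least 3 kept peaks within 50 kb, but too far apart to be stitched. For Nanog, the homeobox factor that stabilises the pluripotent state, 5 kept peaks were in the window, and joining 3 of them would need gaps of up to 11.7 kb. The gap needed was 11.9 kb at Nr5a2, 13.3 kb at Zfp42 and 14 kb at Sall1, and was largest, 27.6 kb, at Prdm14. Nr0b1 had 2 kept peaks in the window. Esrrb had 0 around its most upstream TSS, but a 3-peak cluster within the gene (chr12:86498789-86508790) lay 28.7 kb from another of its TSSs, a case picked out after its values were seen. The count of genes with a cluster therefore followed the joining distance, with 3 at 5 kb, 13 at 15 kb and 18 at 20 kb.

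Among 27 ES cell markers and chromatin regulators, 9 (33.3%, 18.6 to 52.2%) had a cluster. Cdh1 had 7 clustered peaks within 50 kb. Dppa5a, an ES cell RNA-binding protein, had 6 in 1 cluster across its TSS (chr9:78359613-78374707). Tdgf1, the Nodal co-receptor Cripto, had 5 in a cluster that began 0.27 kb from its TSS (chr9:110946428-110965626). The others were Fgf4, Tet1, Tet2, Dnmt3b, Epcam and Upp1, with 3 or 4 clustered peaks each. The signalling lists had fewer. In the FGF and ERK pathway 3 of 12 genes (25%, 8.89 to 53.2%) had a cluster: Spry2, a feedback inhibitor, with 5 peaks at 31.7 kb, Etv5, an ETS factor, with 5 peaks at 23.2 kb, and Spred2, another inhibitor, with 3 peaks across the TSS. In the LIF and STAT3 pathway it was 1 of 10, the feedback inhibitor Socs3, with 4 peaks across the TSS. In the Nodal and BMP pathway it was 2 of 15 (13.3%), the ligand gene Bmp4 and the signal transducer gene Smad3, with 3 peaks each. In the WNT pathway it was 1 of 10, the nuclear factor gene Lef1, with 3 peaks.

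Genes that ES cells keep low or express on exit from the naive state had clusters too. Of 11 genes of formative and primed epiblast, 2 (18.2%, 5.14 to 47.7%) had one: Otx2, with 6 peaks in 2 clusters, and Sox11, with 3 peaks. Of 20 lineage regulators, 2 (10%, 2.79 to 30.1%) had one, the neural factor gene Neurog2 with 4 peaks and the trophoblast factor gene Cdx2 with 3, both across the TSS. Housekeeping genes were at 3 of 18 (16.7%, 5.84 to 39.2%), among them Polr2a with 4 clustered peaks within 50 kb and Rps18 with 1, in clusters 23.2 and 46.7 kb from the TSS. The intervals of the lists are wide and overlap, also between the pluripotency and housekeeping genes.

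**Figure D5:**
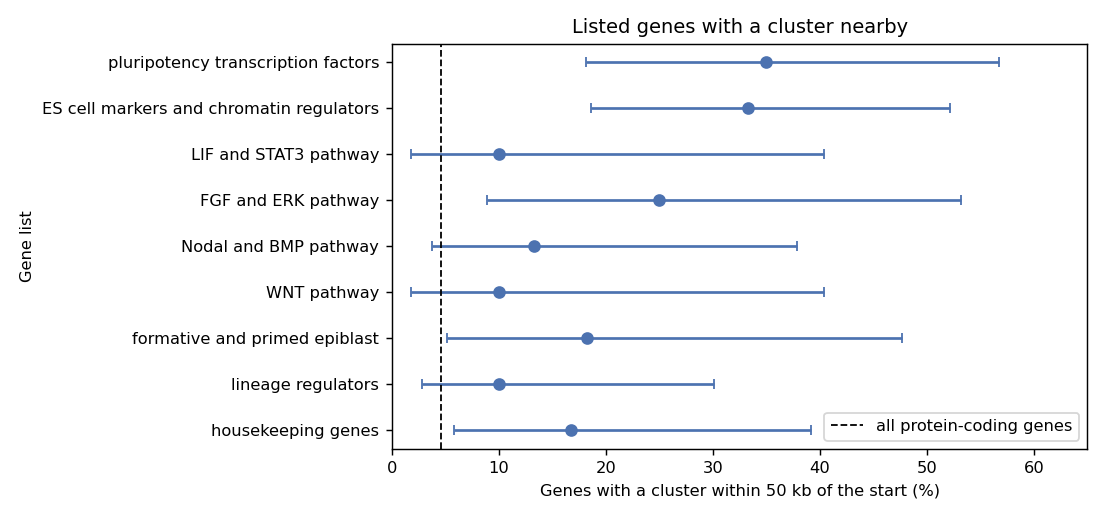
Points give the share (%) of the genes of each list with a cluster within 50 kb of the most upstream start, and bars are 95% Wilson intervals. The dashed line is the share of all protein-coding genes, 4.59%, and the highest shares are 35% for pluripotency transcription factors and 33.3% for ES cell markers and chromatin regulators.

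Some clusters lay in sequence that occurs more than once in the genome. A peak was called multi-copy if over 50% of its 31-base words occurred at more than 1 place, which was so for 87 clustered peaks, 3.98% (3.24 to 4.88%), against 1.22% of lone peaks. They fell in 34 clusters (5.22%), and in 17 of these every peak was multi-copy. Chromosome 4 had 11 of the 34, and for 10 of these the nearest gene was a Zfp zinc-finger gene. Chromosome 8 had 6. How well the reads could be placed among such copies was not measured here. Without multi-copy peaks the composite shares were 7.38% in clustered and 9.8% in lone peaks.

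The autosomes differed in how many of their peaks were clustered, with a mean of 9.77 ± 2.62% (SD, n = 19 chromosomes). The share was highest on chromosome 4, at 15.1% with 64 clusters, and lowest on chromosome 15, at 4.44% with 11. Chromosomes 14 and 8 followed chromosome 4, at 14.4% and 12.6%. With multi-copy peaks dropped before stitching, chromosome 4 had 13.5% and 57 clusters, chromosome 14 had 13.9% and chromosome 8 had 11.4%. Chromosome X had 9 clusters with 6.79% of its peaks. The 8 kept peaks of chromosome Y were all in 2 clusters, but 6 of the 8 were multi-copy, and without these no cluster was left.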

How the data were processed

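OCT4 ChIP-seq of 2TS22C cells was analysed from 1 merged peak list. The authors aligned reads to mm10 with STAR 2.6.1c, removed duplicates with Picard, called peaks with MACS2 2.1.1.20160309 and used bedtools to merge the peak files. What was deposited is the start and end coordinate of each peak, used here 1-based. Which libraries entered the merge, and whether they were pooled before calling, is not given in the sources used here. Merged widths are unions of overlapping peaks. Other libraries were not analysed here.

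Peaks were filtered and stitched with Python 3.11.15, NumPy 2.4.6 and pandas 2.3.3 on the soft-masked GRCm38 sequence with GENCODE M21 genes. Distances to a TSS used every annotated start of a protein-coding transcript, except for the gene lists, which used the most upstream one. Motif, word-count and stitching code was tested on simulated data with known answers. No p-value was computed, because the list has no value per library and peaks are not replicates. The members and gene lists were chosen with earlier results of these data known, and the distance bins and cluster kinds were added after the data were seen. Clusters named with values were the 5 with the most peaks, the 5 with the most composite matches, the 3 longest and all within 50 kb of a pluripotency gene. From each other list the genes with the most clustered peaks were named, at most 3 with values. Alternatives changed the joining distance, filters, motif stringency and TSS rules. The values of a few listed or neighbouring genes are not reported here.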

Additional observations from a re-analysis of the deposited data

How the results depend on the processing

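Of 56 alternative values for 6 results, 33 stayed within the counting interval of the reported value or, for counts, within 1.5 times of it, and 23 did not. The 651 clusters became 178, 1108 and 1519 when gaps up to 5, 15 and 20 kb were joined, 373 when peaks with at least 25% lower-case bases were dropped and 208 with peaks of at least 300 bp alone. That width stood in for a stricter calling threshold, which the list does not give. Under the same settings, in the same order, the 7 pluripotency genes with a cluster became 3, 13, 18, 4 and 3, which follows from fewer or more peaks being joined. The promoter-proximal share of 10.5% became 12% at 20 kb, 7.11% with peaks of at least 300 bp, 15.1% with a limit of 2 kb and 12.4% with 1 middle peak a cluster. The composite share of 7.41% became 1.19% and 22.8% with at most 2 and 4 mismatches, 10.2% over whole peaks, and 6.26% without matches mostly in lower-case bases, an alternative chosen after seeing the data. The share of clusters with a composite match, 21.4%, became 25.3% at 20 kb, 3.99% with at most 2 mismatches and 28.7% over whole peaks. The share of clusters with a TSS within 50 kb, 78.6%, became 74.2% at 5 kb and 69.9% with the most upstream TSS alone. Beyond the construction of each setting, the cause was not tested. No paired analysis was possible because libraries are not separated in the peak list, and for the same reason no replicate could be left out. A peak missing from the list cannot be told from 1 below the calling threshold.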

Other observations

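The 651 clusters had 601 distinct nearest protein-coding genes, 40 of which were nearest to at least 2 clusters and 10 to 3. At Epha4, an ephrin receptor, 3 clusters with 13 peaks lay 1.95 to 58 kb from the TSS and held 1 composite match. The 3 clusters nearest to Jarid2, a cofactor of Polycomb repressive complex 2, had 12 peaks and lay 164 to 366 kb away. At Atf7ip, a cofactor of the histone methyltransferase SETDB1, 3 clusters with 10 peaks lay at most 6.16 kb from a TSS and held 2 composite matches. The 3 clusters of Rere, a nuclear receptor coregulator, had 10 peaks at 3.72 to 34.3 kb, and those of the phosphatase gene Ptprg 10 peaks at 110 to 277 kb. All 12 peaks of the 3 clusters nearest to Gm15319 were multi-copy. Another cluster lay within 50 kb for 69 clusters (10.6%) and within 100 kb for 116, so a larger joining distance would merge some of them. At Prdm1, which encodes the repressor BLIMP1 of germ cell specification, 2 clusters with 9 peaks lay at most 42.8 kb from a TSS.

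In 54 of the 651 clusters at least 3 midpoints lay in 1 non-coding gene, a count for which no background was taken. Beside the 6 peaks in Sox2ot, 5 of 5 lay in 5031425E22Rik, 18 kb from the TSS of Kmt2e, a gene of a SET-domain protein, and 5 of 5 in Mm2pr, 0.17 kb from Uspl1, with no composite match in either. All 6 peaks in Gm26848 and all 5 in Gm26804 were multi-copy. On chromosome 4, Gm26624 hosted 2 clusters of 5 peaks each, near Zfp978 and Zfp988. It also hosted another of 3 peaks, all multi-copy, nearest to Zfp988.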
